A study of Homo sapiens with 12 samples.

Results

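The E2F genes E2F1, E2F2, E2F3, E2F4, E2F5, E2F6, E2F7 and E2F8 and the genes of their dimerization partners, TFDP1 and TFDP2, were taken by gene symbol from the expression files. All 10 genes were present once among the 58302 genes listed in each of 12 libraries, and all 10 were expressed highly enough to be tested in each line. The libraries were made from total RNA of 2 renal carcinoma lines, 769-P and ACHN, collected 48 h after transfection with siRNA against NUF2 (siNUF2) or with a control siRNA (siControl), so that each line had 3 siNUF2 and 3 siControl libraries. NUF2 encodes a subunit of the NDC80 kinetochore complex, and the siNUF2 reagent was a mixture of 2 siRNA duplexes, so the response to a single duplex could not be told apart. 769-P was established from a primary clear cell carcinoma and ACHN from a metastatic effusion, and every library, the siControl ones included, came from transfected cells. The paper cultured 769-P in RPMI medium and ACHN in Eagle's MEM, so line and medium cannot be told apart in comparisons of the lines.

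E2F proteins are the transcription factors that switch on the genes of DNA replication when a cell passes from G1 into S phase. E2F1, E2F2 and E2F3 act mainly as activators, E2F4 and E2F5 as repressors in quiescent and G1 cells together with the pocket proteins RB1, RBL1 and RBL2, and E2F6 as a repressor within a Polycomb complex called PRC1.6. E2F7 and E2F8 are atypical members that repress the same promoters later in S phase and bind DNA without a partner, whereas the others need a DP protein, encoded by TFDP1 or TFDP2. Cyclin-dependent kinases release E2F from the pocket proteins, and several E2F genes are themselves E2F targets.

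Read totals recovered from the files lay between 29244017 and 38864844 a library. NUF2 was lower in every siNUF2 library than in every siControl library of its line, with mean FPKM of 3.68 against 18.3 in 769-P (limma, adjusted p = 0.00145) and 3.85 against 13.8 in ACHN, where the test gave an adjusted p of 0.231 without and 0.0127 with the replicate number as a block. HMGA2, a chromatin protein gene, was named because its fall in these libraries was already known, so it is no independent check. It averaged 31.7 FPKM after siControl and 6.47 FPKM after siNUF2 in 769-P (limma adjusted p = 0.00282). In ACHN it averaged 34.9 and 10.2 FPKM (limma adjusted p = 0.442 without and 0.00690 with the block). Same-numbered libraries of both siRNAs deviated together in both lines. For the 10 E2F and DP genes, values with the replicate block are given beside those without it where they change a call. For most surrounding genes called only with the block, the blocked value alone is given. Without the block limma called 0 genes in all in ACHN. The kidney marker PAX8 and the epithelial markers KRT8 and KRT18 were expressed in both lines, CA9 was at most 0.0625 FPKM on average in any group, and MME averaged 0.0159 FPKM in ACHN siControl libraries. Of the renal carcinoma markers tested, limma called 1 of 8 in 769-P without the block, PAX8 with a log2 fold change of -0.44 (adjusted p = 0.0354), and 0 of 7 in ACHN, with 0 at an unadjusted p under 0.05. With the block 4 rose and 3 fell in 769-P, where limma called 9.88% of all genes without and 27.6% with the block. In ACHN 2 rose and 1 fell with the block, beside 11.7% of all genes called. KRT8 rose by 0.61 and KRT18 by 0.59 in ACHN, against 0.17 and 0.26 in 769-P. With the block KRT8 passed the test of the difference between lines (limma adjusted p = 0.0372). The 5 markers of blood and endothelial cells, of which CD3E was at 0 in every group, summed to at most 0.425 FPKM in any library. The ACHN libraries numbered 1 stood apart in cell cycle genes under both siRNAs, with 25 G2/M genes summing to 436 FPKM against 642 and 618 FPKM in the other siControl libraries and to 522 FPKM against 742 and 698 FPKM in the other siNUF2 libraries. All 9 interferon-response genes examined were higher in every siNUF2 than in every siControl library of 769-P. There they summed to 97.0 to 355 FPKM after siNUF2 and 29.5 to 67.9 FPKM after siControl. Limma called 2 of the 7 tested, IFIT1 and IFI44, without the block, beside 9.88% of all genes. With the block it called all 7, beside 27.6% of all genes. In ACHN the same genes summed to 44.8 to 62.0 FPKM after siNUF2 and 47.3 to 70.8 FPKM after siControl. With the block 2 of the 9, IFIT2 and IFIT3, fell there, beside 11.7% of all genes called. The part of these responses in the values of the E2F family was not tested.

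Promoter windows from RefSeq, on the GRCh38.p14 build and reaching 250 bases before and 50 bases after the start, were matched for 8 of the 10 genes, with E2F5 and E2F8 unmatched. The 4 E2F core spellings TTTCCCGC, TTTCGCGC, TTTGCCGC and TTTGGCGC were searched on both strands, and 3.32% of all 35093 windows held at least 1 of them. Windows of E2F1, E2F2 and TFDP1 held a match, and those of E2F4, E2F6, E2F7 and TFDP2 held none of these letters. For E2F3 the upstream window (chr6:20401629-20401928) held a match and the downstream window (chr6:20403364-20403663) held none. FPKM per gene does not separate transcripts from these starts. The 250 bases before the E2F1 start (minus strand, chr20:33686386-33686635) and before the upstream E2F3 start (plus strand, chr6:20401629-20401878) are shown, with matches in capitals. Both genes carry E2F letters close to a start. E2F2 does too, and its window is not shown. E2F1 passed as higher after siNUF2 in ACHN only with the replicate block (limma adjusted p = 0.0240 with and 0.249 without it). In the other line, 769-P, E2F3 passed as lower with and without the block.
E2F1: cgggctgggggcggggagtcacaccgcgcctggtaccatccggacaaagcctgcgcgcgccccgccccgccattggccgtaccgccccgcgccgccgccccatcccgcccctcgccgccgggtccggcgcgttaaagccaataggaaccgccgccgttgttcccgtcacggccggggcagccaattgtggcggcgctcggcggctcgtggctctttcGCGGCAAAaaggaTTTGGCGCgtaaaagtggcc
E2F3: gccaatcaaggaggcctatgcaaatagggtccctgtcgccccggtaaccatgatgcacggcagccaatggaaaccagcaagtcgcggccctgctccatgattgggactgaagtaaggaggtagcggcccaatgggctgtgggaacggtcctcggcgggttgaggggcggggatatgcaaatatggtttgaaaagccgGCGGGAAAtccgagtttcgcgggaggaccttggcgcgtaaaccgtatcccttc
The E2F1 window held 2 matches, which began 33 and 20 bases before the start, and 0.145% of all windows held 2 or more. GENCODE v29 places the start of E2F1 slightly upstream, so the nearer match falls partly within its first exon in that annotation. The E2F3 match began 53 bases before its upstream start, that of E2F2 42 bases before the start and that of TFDP1 120 bases before. The upstream E2F3 window also held TTTGAA, the core of the cell cycle homology region of G2/M promoters, which 15.2% of all windows held.

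Under siControl the order of the family differed between the lines. In 769-P, TFDP1 was the highest of the 10 genes at 45.7 ± 3.0 FPKM (SD, n = 3), followed by E2F4 at 25.6 ± 2.4 and E2F1 at 25.0 ± 5.5, whose libraries overlapped. E2F3 at 14.7 ± 0.82 and E2F7 at 12.1 ± 1.4 came next, and E2F5 at 7.88 ± 0.93 overlapped with E2F6 at 7.54 ± 0.33. TFDP2 at 4.40 ± 0.70 overlapped with E2F8 at 4.2 ± 0.62, and E2F2 was the lowest at 2.13 ± 0.38 FPKM. The high end of this order thus held a DP gene, a repressor and an activator. In ACHN, E2F4 was the highest at 38.9 ± 3.2 FPKM and stood apart from TFDP1 at 23.9 ± 2.6 and E2F7 at 21.5 ± 11.5, which overlapped. E2F3 at 9.02 ± 1.8 overlapped with E2F7 and with E2F6 at 8.71 ± 1.4, E2F1 followed at 5.06 ± 0.074 and TFDP2 at 3.24 ± 0.42. E2F5 at 2.46 ± 0.29, E2F8 at 1.44 ± 0.76 and E2F2 at 0.992 ± 0.33 FPKM were the lowest, and neighbours among these 3 overlapped. Compared with 769-P, E2F1 stood lower in the order and E2F7 higher. After siNUF2, TFDP1 remained the highest gene in 769-P, with libraries that overlapped those of E2F1, and E2F4 the highest in ACHN, apart from the next gene. E2F2 was the lowest of the 10 genes in all 4 groups, and in these bulk libraries a change in the share of cells in a cell cycle phase cannot be told apart from a change in RNA per cell.

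**Figure D1:**
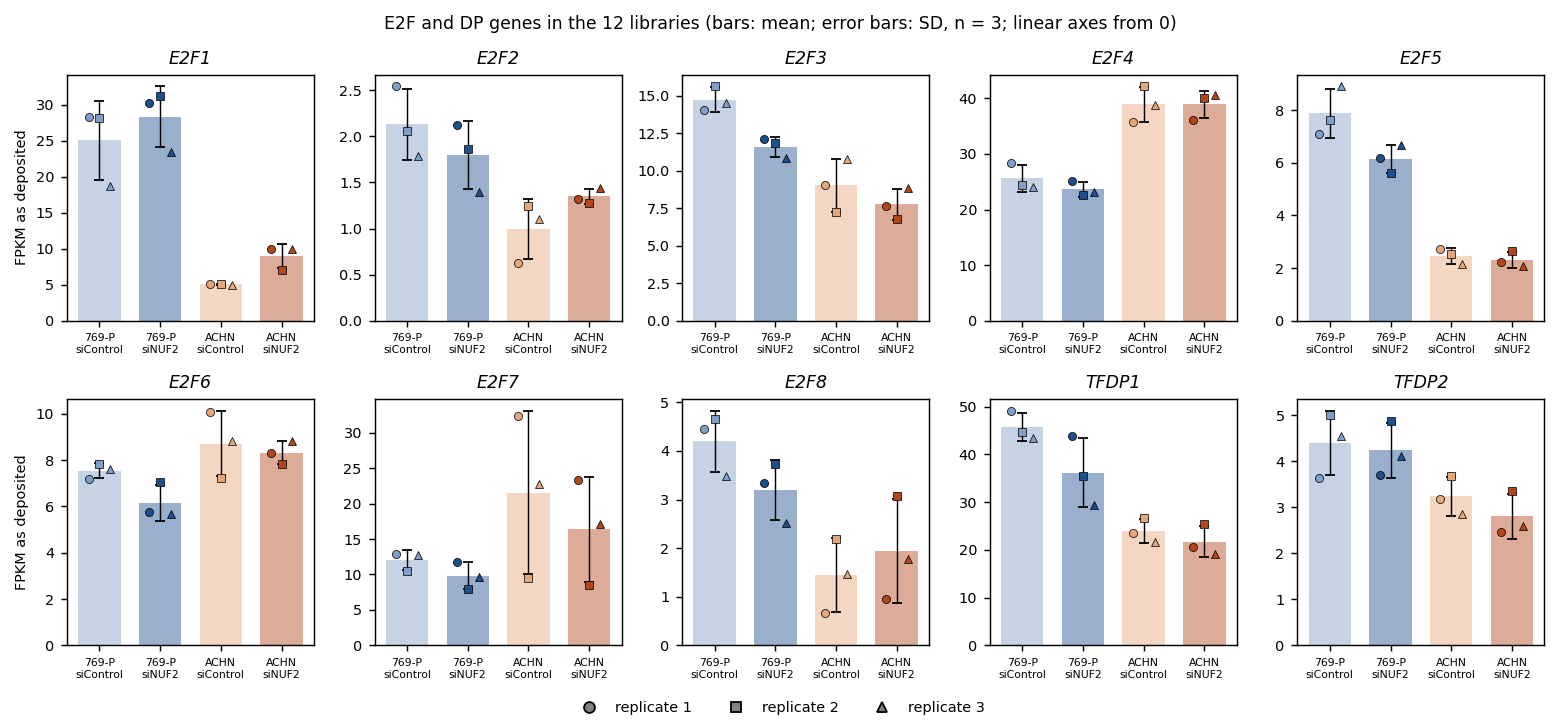
FPKM of the 10 genes in each of the 12 libraries, with 1 panel a gene and its own linear axis from 0; bars are group means, error bars SD (n = 3) and symbols the replicate numbers. E2F1 lies between 18.8 and 31.2 FPKM in 769-P and between 4.99 and 9.92 FPKM in ACHN, and E2F7 and E2F8 spread most within ACHN.

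Between the lines under siControl, 8 of the 10 genes differed (limma, adjusted p under 0.05), beside 63.6% of all 16574 genes tested, so this share is not far above that of all genes. Of the 8 genes, 7 were lower in ACHN, a direction called for 32.0% of all genes, and the median log2 difference of the 10 genes was -0.85 against 0.00 over all genes. E2F1 was 4.94-fold lower in ACHN by the group means (log2 difference -2.28, SE 0.18), E2F5 3.20-fold lower (-1.66, SE 0.13) and E2F8 2.91-fold lower (-1.62, SE 0.43). C8orf59, which shares exonic bases with E2F5 on the opposite strand, also differed, by -1.48 (SE 0.10, limma adjusted p = 5.0e-07). E2F2 differed by -1.09, TFDP1 by -0.95, E2F3 by -0.74 and TFDP2 by -0.44 on the log2 scale. E2F4 was the single gene called higher in ACHN, by 0.58 (SE 0.09). E2F7 differed by 0.64 (SE 0.44, limma adjusted p = 0.220) and E2F6 by 0.17 (SE 0.13, limma adjusted p = 0.254). TFDP2 lost its call when any 1 of 4 siControl libraries was left out, 769-P replicates 2 and 3 and ACHN replicates 1 and 3 (limma adjusted p = 0.0797 to 0.124). Without ACHN siControl replicate 2 the difference of E2F7 was called, at 1.15 (limma adjusted p = 0.0177), and so was that of E2F6, at 0.30 (limma adjusted p = 0.0464).

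As a share of the summed FPKM of E2F1 to E2F8, the activators E2F1, E2F2 and E2F3 made up 42.1 ± 3.7% (SD, n = 3) in 769-P siControl libraries and 17.2 ± 1.7% in ACHN siControl libraries. The repressors E2F4 and E2F5 made up 33.8 ± 2.0% in 769-P and 47.6 ± 9.3% in ACHN. The whole sum differed less, at 99.2 ± 6.6 FPKM in 769-P and 88.1 ± 9.9 FPKM in ACHN. After siNUF2 the activator share of ACHN was 19.5 to 22.3%, above the 15.3 to 18.6% of its siControl libraries, without overlap. In 769-P it was 42.8 to 48.9% after siNUF2 and 38.2 to 45.4% after siControl, with overlap, although each siNUF2 library lay above the siControl library of its number.

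**Figure D2:**
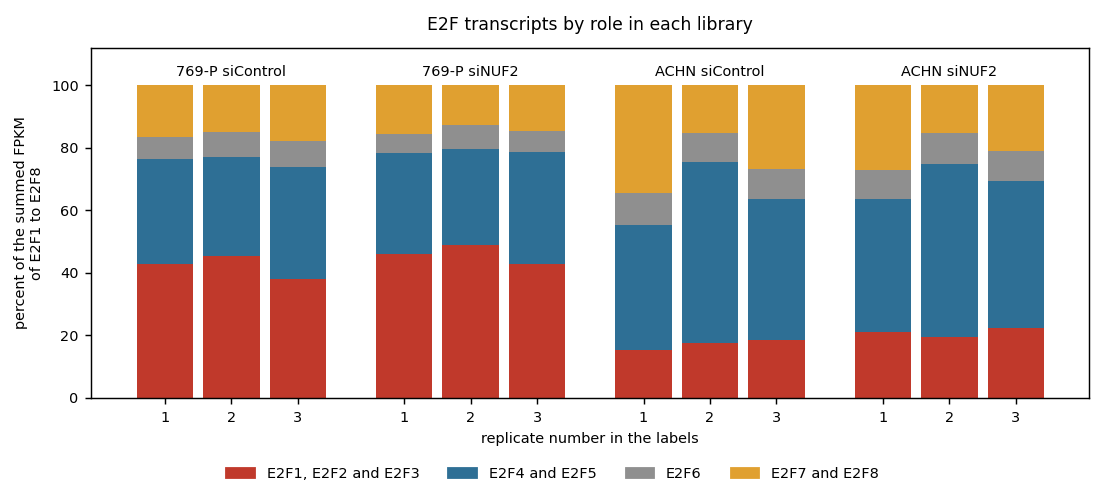
Percent of the summed FPKM of E2F1 to E2F8 taken by each role in each library (y axis, percent; x axis, replicate number within the 4 groups). The activators E2F1, E2F2 and E2F3 take 42.1% on average in 769-P siControl and 17.2% in ACHN siControl libraries, and the share of E2F7 and E2F8 ranges from 15.1 to 34.3% among the ACHN siControl libraries.

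E2F1 (GENCODE v29 on GRCh38, chr20:33675683-33686404, minus strand), the activator with the strongest link to both proliferation and apoptosis, was the gene of the family with the largest difference after siNUF2 in ACHN. Its FPKM in ACHN was 5.08, 5.13 and 4.99 in siControl replicates 1, 2 and 3 and 9.92, 7.07 and 9.91 in the siNUF2 replicates. Every siNUF2 library lay above every siControl library, and the siControl libraries differed from each other by very little. The mean was 1.77-fold that of siControl, with a log2 fold change of 0.80 (SE 0.16) and an adjusted p of 0.249 by limma without the block, and of 0.0240 (SE 0.12) with it. With the block, the call held when the libraries numbered 2 were left out (limma adjusted p = 0.0317) and was lost without those numbered 1 (limma adjusted p = 0.0589) or 3 (limma adjusted p = 0.102), with log2 fold changes of 0.71 to 0.98. In 769-P, E2F1 was at 28.3, 28.1 and 18.8 FPKM after siControl and at 30.3, 31.2 and 23.4 FPKM after siNUF2. The groups overlapped, replicate 3 was the lowest of both groups, and each siNUF2 library was above the siControl library of its number by 0.10 to 0.34 on the log2 scale. The log2 fold change was 0.20 (SE 0.19, limma adjusted p = 0.538), and with the block its adjusted p was 0.0605.

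E2F2 (chr1:23506430-23531220, minus strand), a second activator, had the lowest level of the family and opposite directions in the lines. In 769-P its FPKM was 2.54, 2.06 and 1.79 after siControl and 2.13, 1.86 and 1.4 after siNUF2, lower in each numbered pair with overlap between the groups (log2 fold change -0.23, SE 0.19, limma adjusted p = 0.499). In ACHN it was 0.625, 1.25 and 1.10 after siControl and 1.32, 1.28 and 1.44 after siNUF2. Every siNUF2 library of ACHN lay above every siControl library, with replicate 1 of siControl, at 107 recovered reads, far below the others. The log2 fold change in ACHN was 0.46 (SE 0.26, limma adjusted p = 0.767; 0.194 with the block), and without the libraries numbered 1 the blocked estimate was 0.21.

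E2F3 (chr6:20401906-20493715, plus strand), the activator with 3 coding transcripts in GENCODE v29, was the single member that passed the test without the block in 769-P. Its FPKM was 14.0, 15.6 and 14.5 after siControl and 12.1, 11.8 and 10.9 after siNUF2, so the groups did not overlap. It fell by 0.33 on the log2 scale (SE 0.08, limma adjusted p = 0.0433; 0.0182 with the block). The unblocked call was lost when any 1 of the 6 libraries was left out (limma adjusted p = 0.0632 to 0.137). In ACHN, E2F3 was at 9.05, 7.22 and 10.8 FPKM after siControl and at 7.67, 6.76 and 8.82 FPKM after siNUF2, lower in each pair (log2 fold change -0.20, SE 0.18, limma adjusted p = 0.910; 0.0932 with the block). Its processed pseudogenes E2F3P1 and E2F3P2 are listed as genes of their own, and reads shared with such copies, and with the 1 named copy of E2F4 and the 4 of E2F6, could not be separated further.

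E2F4 (chr16:67192169-67198918, plus strand), the main pocket protein partner of resting cells, showed the smallest differences among the E2F genes in ACHN. It was at 35.7, 42.2 and 38.8 FPKM after siControl and at 36.1, 40.1 and 40.5 FPKM after siNUF2 (log2 fold change 0.01, SE 0.10, limma adjusted p = 0.997). In 769-P it was at 28.4, 24.4 and 24.1 FPKM after siControl and at 25.2, 22.6 and 23.2 FPKM after siNUF2, with overlap (log2 fold change -0.10, SE 0.09, limma adjusted p = 0.545). E2F5, its closest relative, was at 7.10, 7.62 and 8.91 FPKM after siControl in 769-P and at 6.17, 5.59 and 6.66 FPKM after siNUF2. All 3 siNUF2 libraries lay below all 3 siControl libraries, and the log2 fold change of -0.34 (SE 0.11) had a limma adjusted p of 0.0967 without and 0.0227 with the block. In ACHN, E2F5 was at 2.71, 2.52 and 2.14 FPKM after siControl and 2.21, 2.63 and 2.07 FPKM after siNUF2, with no common direction (log2 fold change -0.08, SE 0.15, limma adjusted p = 0.990). Of the 5928 exonic bases of E2F5, 1102 are shared with genes on the opposite strand, most of them with C8orf59. The log2 fold change of C8orf59 in 769-P was -0.05 (SE 0.09, limma adjusted p = 0.761). Between the lines under siControl, C8orf59 was lower in ACHN (log2 difference -1.48, SE 0.10), as was E2F5. The sources used here do not say whether counting used strand, so reads of these bases could not be told apart.

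E2F6 (chr2:11444375-11466177, minus strand), the repressor without a pocket protein binding domain, was at 7.19, 7.84 and 7.60 FPKM after siControl in 769-P and at 5.77, 7.03 and 5.66 FPKM after siNUF2. The groups did not overlap, replicate 2 was the highest in both, and the log2 fold change was -0.28 (SE 0.10, limma adjusted p = 0.129; 0.0397 with the block). In ACHN it was at 10.1, 7.24 and 8.83 FPKM after siControl and at 8.30, 7.83 and 8.83 FPKM after siNUF2, with a log2 fold change of -0.05 (SE 0.14, limma adjusted p = 0.992).

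The atypical repressors E2F7 (chr12:77021247-77065580, minus strand) and E2F8 (chr11:19224063-19241620, minus strand) had estimates of one sign in 769-P and of opposite signs in ACHN. In 769-P, E2F7 was at 12.9, 10.5 and 12.8 FPKM after siControl and at 11.8, 8.01 and 9.67 FPKM after siNUF2 (log2 fold change -0.29, SE 0.16, limma adjusted p = 0.280; 0.0361 with the block). E2F8 in 769-P was at 4.44, 4.66 and 3.49 FPKM after siControl and at 3.33, 3.73 and 2.53 FPKM after siNUF2 (log2 fold change -0.38, SE 0.17, limma adjusted p = 0.214; 0.0154 with the block). For both genes the groups overlapped and each siNUF2 library lay below the siControl library of its number. In ACHN, E2F7 was at 32.4, 9.43 and 22.8 FPKM after siControl and at 23.4, 8.58 and 17.1 FPKM after siNUF2. E2F8 was at 0.669, 2.19 and 1.47 FPKM after siControl and at 0.964, 3.08 and 1.78 FPKM after siNUF2. Within both groups of ACHN, replicate 1 was the highest for E2F7 and the lowest for E2F8, and replicate 2 the reverse. The spread between numbers exceeded the difference between siRNAs for both genes. In ACHN siControl libraries the CV was 53.5% for E2F7 and 52.8% for E2F8. For the other members it ran from 1.45% for E2F1 to 32.8% for E2F2. Within pairs, E2F7 was lower by 0.13 to 0.46 and E2F8 higher by 0.27 to 0.48 on the log2 scale. The log2 fold change in ACHN was -0.33 for E2F7 (SE 0.55, limma adjusted p = 0.988; SE 0.08 and 0.0553 with the block) and 0.41 for E2F8 (SE 0.53, limma adjusted p = 0.964; SE 0.10 and 0.0618 with the block). E2F7 passed the blocked test without the libraries numbered 2, at -0.43 (limma adjusted p = 0.0477).

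**Figure D3:**
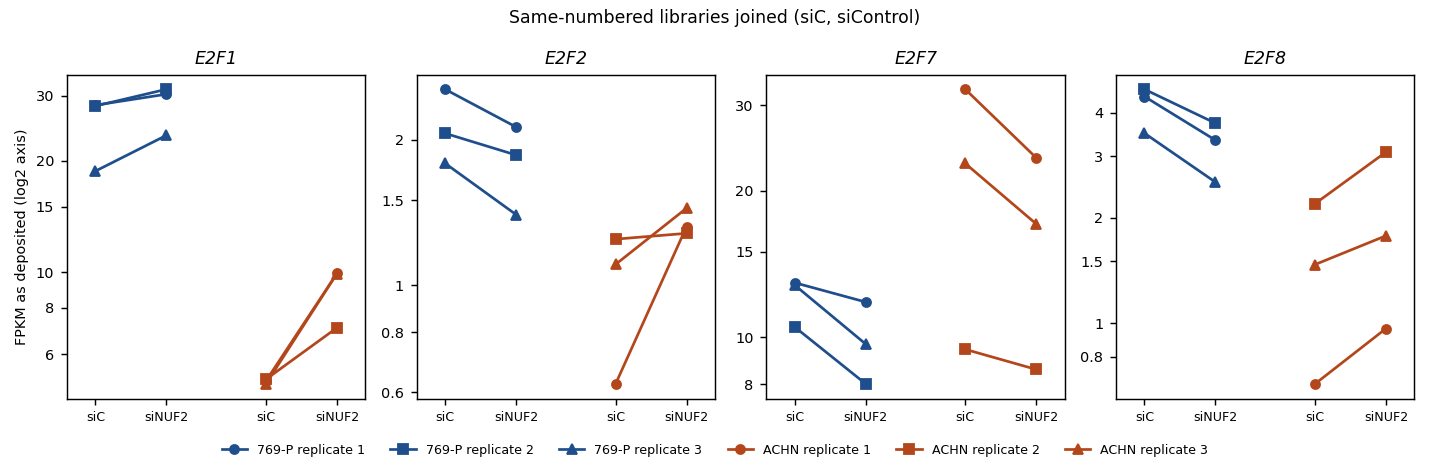
FPKM of E2F1, E2F2, E2F7 and E2F8 (log2 axis) in siControl (siC) and siNUF2 libraries, with lines joining libraries of the same line and replicate number. E2F8 goes down in all 3 pairs of 769-P and up in all 3 pairs of ACHN, where its levels range from 0.669 to 3.08 FPKM, and E2F7 goes down in all 6 pairs.

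TFDP1 (chr13:113584721-113641470, plus strand), which encodes the main partner DP1, was at 49.1, 44.7 and 43.4 FPKM after siControl in 769-P and at 43.7, 35.5 and 29.3 FPKM after siNUF2. The siNUF2 replicate 1 lay within the range of the siControl libraries and the other siNUF2 libraries below it. The log2 fold change was -0.34 (SE 0.15, limma adjusted p = 0.187; 0.0360 with the block). In ACHN, TFDP1 was at 23.5, 26.7 and 21.6 FPKM after siControl and at 20.5, 25.5 and 19.2 FPKM after siNUF2 (log2 fold change -0.14, SE 0.14, limma adjusted p = 0.938; 0.130 with the block). TFDP2 (chr3:141944428-142149544, minus strand), which encodes the second partner, was at 3.63, 5.0 and 4.55 FPKM after siControl in 769-P and at 3.71, 4.89 and 4.11 FPKM after siNUF2 (log2 fold change -0.03, SE 0.15, limma adjusted p = 0.906). In ACHN it was at 3.18, 3.69 and 2.86 FPKM after siControl and at 2.46, 3.35 and 2.59 FPKM after siNUF2, lower in each pair with overlap between groups (log2 fold change -0.20, SE 0.16, limma adjusted p = 0.881; 0.157 with the block).

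Counted over the family in 769-P, 1 of 10 genes passed the test without the block, beside 9.88% of all 14157 genes tested and 4.55% called lower. With the block 6 of 10 passed, E2F3, E2F5, E2F6, E2F7, E2F8 and TFDP1, all lower, beside 27.6% of all genes called in either direction and 13.7% called lower. The blocked count was 4 without the libraries numbered 1, 0 without those numbered 2, when 1137 genes in all were still called, and 3 without those numbered 3. The median log2 fold change of the 10 genes was -0.29 against -0.01 over all genes tested. In 3 of 10 genes, E2F3, E2F5 and E2F6, the siNUF2 libraries all lay below the siControl libraries, which held for 16.1% of all genes, and the two-sided exact permutation test gave each of them p = 0.1, the smallest that 3 against 3 libraries allow. In 8 of 10 genes, all but E2F1 and TFDP2, all 3 numbered pairs were lower, which held for 31.6% of all genes.

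In ACHN, limma without the block called 0 of 10 genes and 0.0% of all 15115 genes tested, limma-voom on recovered reads also called 0 of the 10, and at an unadjusted p under 0.05 there were 1 of the 10 genes, E2F1, and 1231 of all genes. With the block 1 of 10 passed, E2F1, beside 11.7% of all genes in either direction and 6.63% called higher. The siNUF2 libraries all lay above the siControl libraries for E2F1 and E2F2, which held for 8.34% of all genes, each with p = 0.1 in the two-sided exact permutation test.

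**Figure D4:**
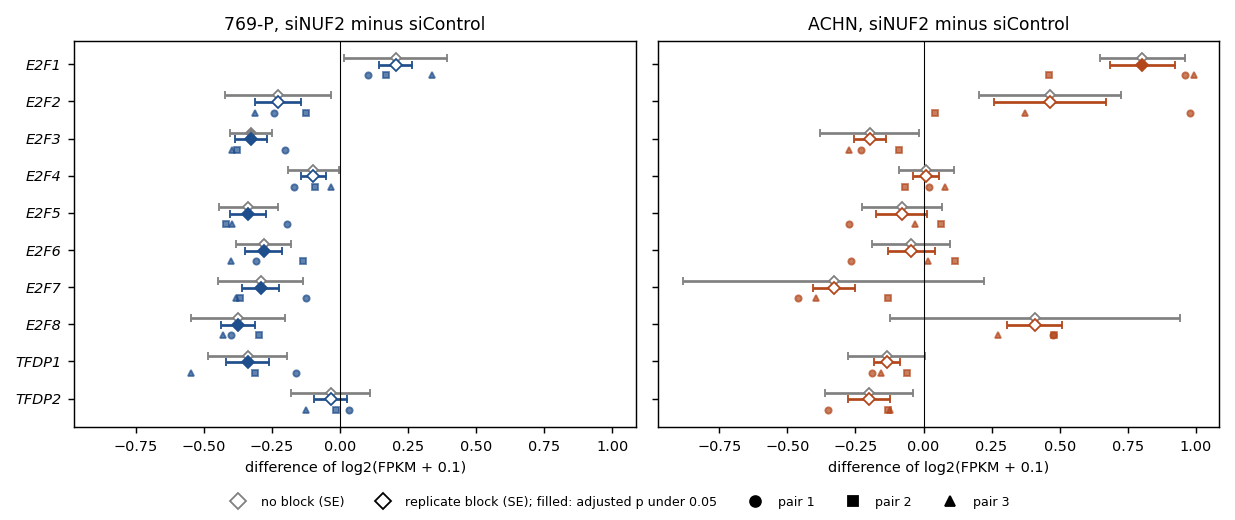
Log2 fold change (siNUF2 minus siControl, log2(FPKM + 0.1)) of the 10 genes in 769-P and ACHN. Gray diamonds show the estimate without and colored diamonds the same estimate with the replicate block, bars are SE, filled diamonds mark an adjusted p under 0.05, and small symbols are the 3 numbered pairs; in 769-P 6 blocked diamonds are filled, all below 0, and in ACHN that of E2F1, at 0.80.

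Whether the lines responded differently was tested as an interaction over all 12 libraries. Without the block limma called 0 of 10 genes and 0.0% of all 16574 genes tested, limma-voom called 0 of the 10, and at an unadjusted p under 0.05 there were 1 of the 10 genes, E2F1, and 778 of all genes. With the block E2F8 passed, with a response 0.79 higher in ACHN than in 769-P on the log2 scale (SE 0.10, limma adjusted p = 0.0359), beside 1.42% of all genes called. Its estimate was 0.75 to 0.83 when the libraries of 1 number were left out, and its adjusted p then was 0.137 to 0.227 by limma, in fits that called at most 1 gene in all. The difference was 0.61 for E2F1 (SE 0.15, limma adjusted p = 0.102 with the block) and 0.70 for E2F2 (SE 0.24, limma adjusted p = 0.190 with the block). For the other 7 genes it lay between -0.16 and 0.26, with blocked adjusted p of 0.279 to 0.910.

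The genes around the family came from lists of pocket proteins, MuvB subunits and partners, cyclins, kinases and inhibitors, turnover factors, targets and PRC1.6 subunits. In 769-P limma called 11 of the 117 list genes tested without the block, a share near the 9.88% of all genes, and 3 to 9 when 1 library was left out, the fewest without siControl replicate 2 or 3. The genes of the pocket proteins that restrain E2F were not called by limma on log2 FPKM in either line, with or without the block. Limma-voom with the block called 1 of the 3 higher in ACHN, beside 3586 of all 15078 genes called. RB1 averaged 16.1 FPKM in both groups of 769-P and 9.80 and 9.88 FPKM after siControl and siNUF2 in ACHN. RBL1, itself an E2F target, averaged 2.20 FPKM after siControl and 3.20 FPKM after siNUF2 in ACHN (log2 fold change 0.53, limma adjusted p = 0.0816 with the block), and RBL2 averaged 9.56 and 10.7 FPKM (0.16, limma adjusted p = 0.142 with the block). In 769-P the log2 fold changes were 0.01 for RB1, 0.11 for RBL1 and 0.01 for RBL2. Of the 4 turnover genes, CCNF, whose product cyclin F targets E2F proteins for degradation, rose in ACHN with the block by 0.32 (SE 0.05, limma adjusted p = 0.0305). It was the 1 called of the 4, beside 11.7% of all genes. SKP2, FZR1 and FBXO5 had log2 fold changes of 0.16, 0.11 and -0.04 in ACHN, and the 4 genes lay between -0.20 and -0.01 in 769-P, uncalled.

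Of 7 MuvB genes and partners, RBBP4, a histone chaperone subunit, rose in 769-P by 0.32 (SE 0.06, limma adjusted p = 0.0242) and, with the block, in ACHN by 0.33 (limma adjusted p = 0.0281). MYBL2, the S phase partner of MuvB and an E2F target, rose with the block in both lines, by 0.24 in 769-P (limma adjusted p = 0.0168) and by 0.50 in ACHN (limma adjusted p = 0.0344). FOXM1, the G2/M partner, had log2 fold changes of -0.10 and 0.09. Of the 7 genes, 2 rose and 1 fell with the block in 769-P, beside 27.6% of all genes called. In ACHN 2 of 6 tested rose with the block, beside 11.7% of all genes called. Among 16 cyclins, kinases and inhibitors, 3 of 14 tested fell in 769-P and 0 rose, beside 9.88% of all genes called and 4.55% called lower. With the block 5 fell and 2 rose, beside 27.6% of all genes called and 13.7% called lower. CCND1, the G1 cyclin that drives phosphorylation of RB1, averaged 267 ± 30.2 FPKM (SD, n = 3) after siControl and 133 ± 27.7 FPKM after siNUF2 in 769-P (fell by 1.00, SE 0.16, limma adjusted p = 0.0143). Of the inhibitor genes, CDKN1B fell in 769-P by 0.58 (limma adjusted p = 0.0265) and CDKN1C fell by 1.71 (limma adjusted p = 0.0272). CCNE2 fell with the block in 769-P by 0.37 (limma adjusted p = 0.0296), and CCNE1 had log2 fold changes of -0.05 in 769-P and 0.21 in ACHN. With the block in ACHN, 2 of 15 tested rose and 3 fell, beside 11.7% of all genes called. CDKN1A, the p21 inhibitor, fell by 0.79 (SE 0.10, limma adjusted p = 0.0194), from 178 to 100.4 FPKM on average, and CCND2 fell by 0.70 and CDKN2C by 0.46. CCND3 rose by 0.60 and CDK2, the cyclin E kinase, by 0.33 (limma adjusted p = 0.0290). For CCND1 in ACHN the log2 fold change was -0.36 (limma adjusted p = 0.0511 with the block) and for CDKN1A in 769-P it was -0.10.

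The 39 G1/S target genes, among them the MCM helicase subunits and the nucleotide synthesis enzymes, were all tested in both lines. In ACHN all 39 had an estimate above 0 after siNUF2, which held for 49.6% of all genes, with a median log2 fold change of 0.43 against -0.00 over all genes. In 37 of the 39 all 3 numbered pairs were higher, which held for 28.0% of all genes. Limma called 0 of the 39 without the block, and limma-voom called 0. Of the 39, 21 had an unadjusted limma p under 0.05, beside 1231 of all 15115 genes tested. With the block 17 rose and 0 fell, beside 6.63% of all genes called higher, among them GINS2, a subunit of the replicative helicase (0.96, SE 0.12, limma adjusted p = 0.0181), MCM3 (0.59, limma adjusted p = 0.0350) and GINS1 (0.56, limma adjusted p = 0.0181). The summed FPKM of the 39 was 459, 609 and 572 after siControl and 674, 703 and 756 after siNUF2, so that replicate 1 was the lowest of both groups and the groups did not overlap. Without siControl replicate 1, 37 of 39 estimates were above 0, with a median of 0.29. The blocked count of risers was 7 without the libraries numbered 1, 17 without those numbered 2 and 0 without those numbered 3, when 0 genes in all were called and 3372 had an unadjusted p under 0.05.

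In 769-P the G1/S targets had no common direction: 22 of 39 estimates were above 0, beside 49.3% of all genes, and the median was 0.01. Without the block limma called 0 of the 39 and limma-voom 0. Of the 39, 6 had an unadjusted limma p under 0.05, beside 3904 of all 14157 genes tested. With the block 5 rose (MCM3, GINS2, RRM1, TYMS and MYBL2) and 3 fell (RRM2, SLBP and CCNE2), 8 of 39 beside 27.6% of all genes. GINS2 rose by 0.32 (limma adjusted p = 0.0154) and RRM2, the regulated subunit of ribonucleotide reductase, fell by 0.23 (limma adjusted p = 0.0441). The response was higher in ACHN than in 769-P by its estimate for 39 of 39 genes, beside 51.3% of all genes. With the block 3 of 39 passed the test of that difference, GINS1, PRIM1 and DNMT1, beside 1.42% of all genes. Under siControl, 34 of the 39 were called lower in ACHN than in 769-P and 0 higher, beside 32.0% of all genes called lower. The summed level was 1223 ± 74 FPKM in 769-P and 547 ± 78 FPKM in ACHN. Of the 33 target genes with a RefSeq window, 20 held 1 of the E2F spellings.

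Of 25 G2/M genes, 24 had an estimate above 0 in ACHN, beside 49.6% of all genes, with a median log2 fold change of 0.19. With the block 9 rose, beside 6.63% of all genes, and 0 fell, including BIRC5, which encodes survivin (0.55, SE 0.05, limma adjusted p = 0.0121), the spindle checkpoint kinase gene BUB1 (0.46, limma adjusted p = 0.0165) and the centrosomal kinase gene NEK2 (0.44, limma adjusted p = 0.0154). Without ACHN siControl replicate 1 alone, which keeps its low siNUF2 partner, 12 of 25 estimates were above 0 and the median was -0.01. Within pairs 23, 24 and 21 of the 25 were higher in pairs 1, 2 and 3, and without both libraries numbered 1 the blocked fit gave 24 of 25 estimates above 0, a median of 0.18 and 4 risers, against 4 without number 2 and 0 without number 3. In 769-P the kinetochore gene CENPF (0.37, limma adjusted p = 0.0478) and BIRC5 (0.57, limma adjusted p = 0.0396) rose without the block, and with the block 5 of 25 rose and 1, PLK1, fell, beside 27.6% of all genes called.

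Of 6 apoptosis genes linked to E2F1, 5 were tested in each line, and TP73 was below the filter in both. Limma called 0 of the 5 in 769-P without the block, and limma-voom called 1. By limma without the block 4 of the 5 had an unadjusted p under 0.05, beside 3904 of all 14157 genes tested. With the block 1 rose and 1 fell in 769-P, beside 27.6% of all genes called. PMAIP1, which encodes the BH3-only protein NOXA, rose there by 0.55 (SE 0.07, limma adjusted p = 0.00834). BCL2L11, which encodes BIM, fell by 0.34 (SE 0.09, limma adjusted p = 0.0466). In ACHN, APAF1, the apoptosome scaffold, fell with the block by 0.54 (limma adjusted p = 0.0211), from 10.5 to 7.12 FPKM on average. It was the 1 called of the 5 there, beside 11.7% of all genes. All 5 had an estimate below 0 in ACHN, with a median log2 fold change of -0.25, where 49.6% of all genes had an estimate above 0. Without the block 0 of the 5 had an unadjusted limma p under 0.05 there.

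Of 14 subunits of PRC1.6, the complex that contains E2F6, limma called 2 higher and 1 lower in 769-P without the block, beside 9.88% of all genes. With the block 3 rose and 2 fell there, beside 27.6% of all genes, and in ACHN 3 rose and 1 fell, beside 11.7%. The median log2 fold change of the 14 was 0.01 in 769-P and 0.08 in ACHN. PCGF6, the defining Polycomb ring finger subunit, rose in 769-P from 7.53 to 10.6 FPKM on average (0.50, SE 0.08, limma adjusted p = 0.0136). With the block it rose in ACHN from 5.30 to 8.87 FPKM (0.74, SE 0.08, limma adjusted p = 0.0147). HDAC1, a histone deacetylase shared with other complexes, rose in 769-P by 0.59 (limma adjusted p = 0.00526) and in ACHN with the block by 0.50 (limma adjusted p = 0.0174). CBX3, a heterochromatin protein, fell in 769-P by 0.32 (limma adjusted p = 0.0359), and in ACHN with the block WDR5 rose by 0.27 and RNF2 fell by 0.28. MGA and MAX, subunits that bind DNA as E2F6 does, were not called by limma on log2 FPKM in either line, with or without the block. Of 9 germline genes known as E2F6 targets, 3 passed the filter in 769-P and 2 in ACHN, and the 9 summed to at most 4.93 FPKM in any library. The tubulin gene TUBA3D fell with the block in 769-P by 0.39 (limma adjusted p = 0.0420). It was the 1 called of the 3 tested there, beside 27.6% of all genes.

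The genes most like E2F1 over the 12 libraries were sought among 12931 genes by the root mean square difference of log2 levels centered within each line. They were AC022211.2 (0.15), AC006064.3 (0.17), LINC01963 (0.17), AC112777.1 (0.17) and CHAF1A (0.18), the last encoding a subunit of the histone chaperone that acts in DNA replication. Those nearest to E2F8, the member with the largest fold change in 769-P, were ASRGL1 (0.20), PRKAR2B (0.21), EZR (0.22), AC011476.3 (0.22) and PSORS1C3 (0.22), and like E2F8 they spread widely among the ACHN libraries: EZR, a membrane-cytoskeleton linker, was at 83.0, 175 and 105 scaled FPKM in ACHN siControl replicates 1, 2 and 3.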

How the data were processed

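Total RNA of 4 groups with 3 libraries each was sequenced. Per the labels, reads were aligned to hg38 with HISAT2 2.0.5 and counted with featureCounts 1.5.0-p3, and the authors deposited FPKM per gene, 1 table a library. Gene models are GENCODE v29. The strand setting is not given in the sources used here.

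Levels are FPKM as deposited. For tests, FPKM was scaled by a trimmed mean of log ratios (30% of ratios, 5% of levels), genes were kept where at least 3 libraries reached a scaled FPKM of 0.5, and log2(FPKM + 0.1) was fitted with limma 3.58.1 (R 4.3.3, trend) within each line, or over 12 libraries for line contrasts and interactions, with Benjamini-Hochberg adjustment over all genes tested and a threshold of 0.05. Fold changes on this scale understate those of low genes. Whole reads were recovered from FPKM and gene length for about 97% of low values (tolerance 0.02 reads) and tested with limma-voom as an added alternative. Same-numbered libraries were checked for shared deviations: the 769-P pairs correlated at 0.36, 0.27 and 0.19, the ACHN pairs at 0.65, 0.74 and 0.46. The replicate number was therefore fitted as a block, with the numbers taken to pair the libraries, which the labels do not state. The labels name them repeats without saying whether they are separate cultures, so p-values cover the spread between these libraries, which may be technical. Alternatives left out libraries, scaled or filtered differently, changed the pseudocount or used all 12 libraries. Scripts were tested on simulated data. Members and gene lists were chosen with earlier results of these data known. Named genes are all members, all genes of lists of 4 or fewer, otherwise up to 3 called risers and fallers a list, NUF2, HMGA2 and 8 fixed regulators (PCGF6, CDKN1A, CCND1, CCNE1, CCNE2, RB1, MYBL2, FOXM1), and the 5 nearest genes of E2F1 and E2F8. Chosen after their values were seen were RRM1, RRM2, TYMS, SLBP, PRIM1, DNMT1, PLK1, AURKB, MGA, MAX, TP73, PMAIP1, BCL2L11 and TUBA3D. A few list genes are not reported here and were left out of the lists.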

Additional observations from a re-analysis of the deposited data

Results flagged for a closer look

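E2F2 had every same-numbered pair lower after siNUF2 in 769-P and every pair higher in ACHN. Its response was 0.70 higher in ACHN on the log2 scale, a difference that limma did not call (adjusted p = 1.00 without and 0.190 with the replicate block).

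With the replicate block, limma's test of the difference in response between the lines (ACHN minus 769-P, log2, adjusted p under 0.05) called 1 of the 10 E2F and DP genes, E2F8, at 0.79. Among the surrounding genes it called the kinase gene CDK2 at 0.42, the replication genes GINS1 at 0.52 and PRIM1 at 0.42, the maintenance DNA methyltransferase gene DNMT1 at 0.41, and the mitotic kinase genes PLK1 at 0.37, AURKB at 0.30 and NEK2 at 0.56, all with the higher response in ACHN. It also called 7 of 9 interferon-response genes with the lower response in ACHN, IFIT1 at -2.82, IFIT2 at -1.34, ISG15 at -2.36, OAS1 at -1.88, IFI6 at -2.52, IFI44 at -2.69 and IFI44L at -2.65. Over all 16574 genes tested, the blocked test called 1.42%. Without the block the same test called 0 genes in all, with 778 at an unadjusted p under 0.05 and 0 called by limma-voom. With the block and the libraries of 1 replicate number left out, it called 1 gene in all or 0.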

How the results depend on the processing

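Among the E2F and DP genes, limma called 1 in 769-P, 0 in ACHN, 0 in the difference in response between the lines and 8 between the lines under siControl. The replicate block gave 6, 1, 1 and 8 calls. In 769-P the count was 0 without the filter, 0 in the fit of all 12 libraries, 0 without any 1 library and 7 by limma-voom with the block. By limma-voom with the block it was 5 in ACHN and 2 in the difference. Over all genes, limma-voom with the block called 5179 of 14124 in 769-P, 3586 of 15078 in ACHN and 1041 of 16530 in the difference. With the block and the libraries of 1 number left out it was 0 to 4 in 769-P (4, 0 and 3 without numbers 1, 2 and 3) and 0 to 2 in ACHN, with 2 without number 2. These leave-outs of a number and limma-voom were chosen after seeing the data.

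Of the genes of the surrounding lists, 11 were called in 769-P, against 5 without the filter, 37 with the replicate block, 18 by limma-voom, 46 by limma-voom with the block, 3 to 9 without 1 library and 12 to 30 with the block and without 1 number (21 without number 1). In ACHN 0 were called by limma and 0 by limma-voom. At an unadjusted limma p under 0.05 there were 29, beside 1231 of all 15115 genes tested. The count there was 5 in the fit of all 12 libraries, 40 with the replicate block and 69 by limma-voom with the block. With the block and without 1 number it was 0 to 28 (18 without number 1). Over all genes, limma called 9.88% in 769-P, and with the replicate block 27.6% in 769-P and 11.7% in ACHN. Limma-voom with the block called 5179 of 14124 genes in 769-P and 3586 of 15078 in ACHN.

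The estimates that changed sign when libraries were left out were not called by limma on log2 FPKM with all libraries, with or without the block, whereas limma-voom with the block called E2F7 (adjusted p = 0.00253) and E2F8 (adjusted p = 0.0183) in ACHN. In 769-P the log2 fold change of TFDP2 ranged from -0.16 to 0.058, with 0.0091 with the block and without number 3. In ACHN, E2F4 ranged from -0.045 to 0.069 (-0.022 without number 3), E2F5 reached 0.016 without number 1, E2F6 ranged from -0.17 to 0.068 (0.066 without number 1), E2F7 from -0.84 to 0.081 and E2F8 from -0.022 to 0.81. In the difference between lines, E2F3 ranged from -0.011 to 0.27 and E2F7 from -0.54 to 0.37 (0.12 without number 1). The cause of these changes was not tested.

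With 3 libraries a group, the exact permutation test cannot go below p = 0.1. E2F2 and E2F8, with as few as 107 and 87 recovered reads in a library, were the least precisely counted members.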
